A study of Mus musculus with 9 samples.

Results

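Heat shock proteins and their relatives in the endoplasmic reticulum (ER) are chaperones, and 10 of their genes are described here: Hspa1a, Hspa1b, Hsph1, Dnajb1, Hsp90aa1, Hspa8 and Hspb1, whose products work in the cytosol, and Hspa5, Hsp90b1 and Pdia4, whose products work in the ER lumen. They were taken by gene symbol from a table of 55359 genes, and all 10 were among the 15459 genes with at least 1 FPKM (fragments per kilobase of exon, scaled by the library total) in at least 3 libraries. The study compared whole lung of male C57BL/6J mice aged 6 to 8 weeks on day 28 after an intratracheal instillation, with 20 mice per group in the study and 3 sequenced libraries per group here. Silica + ATL-III mice were given 5 mg of silica in saline and, into the peritoneum, 30 mg/kg per day of ATL-III (atractylenolide III, a plant sesquiterpene lactone), Silica mice were given the same silica alone, and Control mice were given saline alone. The labels mention no peritoneal vehicle for the Silica and Control mice, so ATL-III and its injection cannot be told apart, and they do not tell 1 mouse from a pool in a library, and a p-value here reflects the scatter among libraries, which may be technical.

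Chaperones bind unfolded segments of other proteins and release them in cycles of ATP hydrolysis. In the cytosol, Hsp70 proteins take substrates from J-domain cochaperones and can pass them on to Hsp90, small heat shock proteins hold unfolded proteins without ATP, and the factor HSF1 raises transcription of the inducible members when unfolded protein builds up. In the ER, the Hsp70 protein BiP, the Hsp90 paralog GRP94 and the protein disulfide isomerases fold secreted and membrane proteins, and the factors ATF6 and XBP1 raise their transcription during the unfolded protein response (UPR). In lung, type 2 alveolar cells, plasma cells and matrix-secreting fibroblasts carry a large ER load.

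The sequences before the start of transcription were searched for the letters of the heat shock and ER stress response elements. RefSeq (GRCm38.p6) gave the 250 bases upstream for 8 of the 10 genes, in 10 windows because Hsph1 and Dnajb1 each have a pair of starts. The heat shock element was searched as a pair of facing units, GAANNTTC or TTCNNGAA, and as a 3-unit form, GAA, TTC and GAA with 2 free bases between units. The ER stress response element was searched as CCAAT, 9 free bases and CCACG, and its shorter second form as ATTGG, 1 free base and CCACG, each on both strands. The windows of 5 genes with matches, the inducible Hsp70 pair and Hspb1 from the cytosol and BiP and GRP94 from the ER, are printed 5′ to 3′ on the gene's strand, with GAANNTTC or the ER stress response element in capitals (where it runs on the other strand it reads CGTGG to ATTGG).
Hspa1a: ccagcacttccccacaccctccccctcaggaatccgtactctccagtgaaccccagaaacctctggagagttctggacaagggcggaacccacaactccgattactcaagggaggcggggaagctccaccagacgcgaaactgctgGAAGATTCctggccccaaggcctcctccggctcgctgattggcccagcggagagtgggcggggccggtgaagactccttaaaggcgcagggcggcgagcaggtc
Hspa1b: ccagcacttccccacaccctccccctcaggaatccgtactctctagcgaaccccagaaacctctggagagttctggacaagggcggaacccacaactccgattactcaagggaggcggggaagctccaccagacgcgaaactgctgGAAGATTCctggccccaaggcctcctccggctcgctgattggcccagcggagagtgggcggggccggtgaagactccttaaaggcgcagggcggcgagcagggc
Hspb1: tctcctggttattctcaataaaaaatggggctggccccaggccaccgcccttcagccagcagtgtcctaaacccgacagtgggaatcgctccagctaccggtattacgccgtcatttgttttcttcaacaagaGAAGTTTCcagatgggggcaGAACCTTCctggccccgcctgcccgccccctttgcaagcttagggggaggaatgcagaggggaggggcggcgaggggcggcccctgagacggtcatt
Hspa5: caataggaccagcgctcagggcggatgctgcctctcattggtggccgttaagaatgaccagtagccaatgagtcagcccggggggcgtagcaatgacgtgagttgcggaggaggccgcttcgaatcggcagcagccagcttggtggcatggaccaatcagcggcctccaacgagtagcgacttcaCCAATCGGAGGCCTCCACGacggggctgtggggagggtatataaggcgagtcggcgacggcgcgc
Hsp90b1: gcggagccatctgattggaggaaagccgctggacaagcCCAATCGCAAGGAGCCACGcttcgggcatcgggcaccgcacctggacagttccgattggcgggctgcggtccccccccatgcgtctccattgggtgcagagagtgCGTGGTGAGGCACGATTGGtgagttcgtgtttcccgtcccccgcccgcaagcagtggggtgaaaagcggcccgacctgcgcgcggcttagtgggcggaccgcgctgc
They lie at chr17:34972157-34972406 (Hspa1a, minus strand), chr17:34959239-34959488 (Hspa1b, minus strand), chr5:135887669-135887918 (Hspb1, plus strand), chr2:34771840-34772089 (Hspa5, plus strand) and chr10:86705445-86705694 (Hsp90b1, minus strand). GAANNTTC stood at the same place in Hspa1a and Hspa1b, 104 to 97 bases before the start, and at 2 places in Hspb1, 117 to 110 and 97 to 90 bases before it. The windows of Hspa1a and Hspa1b are identical at 98.8% of bases. TTCNNGAA was found in both windows of Hsph1, which overlap, and is the same site in both, 33 to 26 and 54 to 47 bases before the 2 starts. Of 32851 mouse windows of the same length, 6.69% held GAANNTTC, 7.17% held TTCNNGAA and 0.466% held the 3-unit form, which was in 0 of the 10 windows. The ER stress response element was far rarer, in 37 windows (0.113%), among them Hspa5 with 1 match, 65 to 47 bases before the start, and Hsp90b1 with 2 matches, 212 to 194 and 107 to 89 bases before it. The shorter second form was in 0.0304% of all windows and in 0 of these 10. The windows of Pdia4 and Dnajb1 held none of these 5 letter patterns, which says only that the letters were not there.

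Transcript levels per exon length spanned a wide range. Mean FPKM over the 9 libraries were 291.4 for Hsp90b1 (GRP94), 280.2 for Hsp90aa1 (inducible Hsp90 alpha), 161.7 for Hspa8 (the constitutive Hsc70) and 123.1 for Hspa5 (BiP). They were 42.3 for Hspb1 (the small heat shock protein Hsp25), 30.0 for Pdia4 (the disulfide isomerase ERp72), 20.2 for Hsph1 (Hsp110, which exchanges the nucleotide of Hsp70) and 16.1 for Dnajb1 (Hsp40, a J-domain cochaperone). The inducible Hsp70 genes were lowest, at 4.54 for Hspa1b and 3.24 for Hspa1a. The library ranges of genes next to each other in this order overlapped, except those of Hspa5 and Hspb1. Hsp90aa1 ranked 142 and Hspa1a 10092 of 15459 tested genes by mean FPKM.

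**Figure D1:**
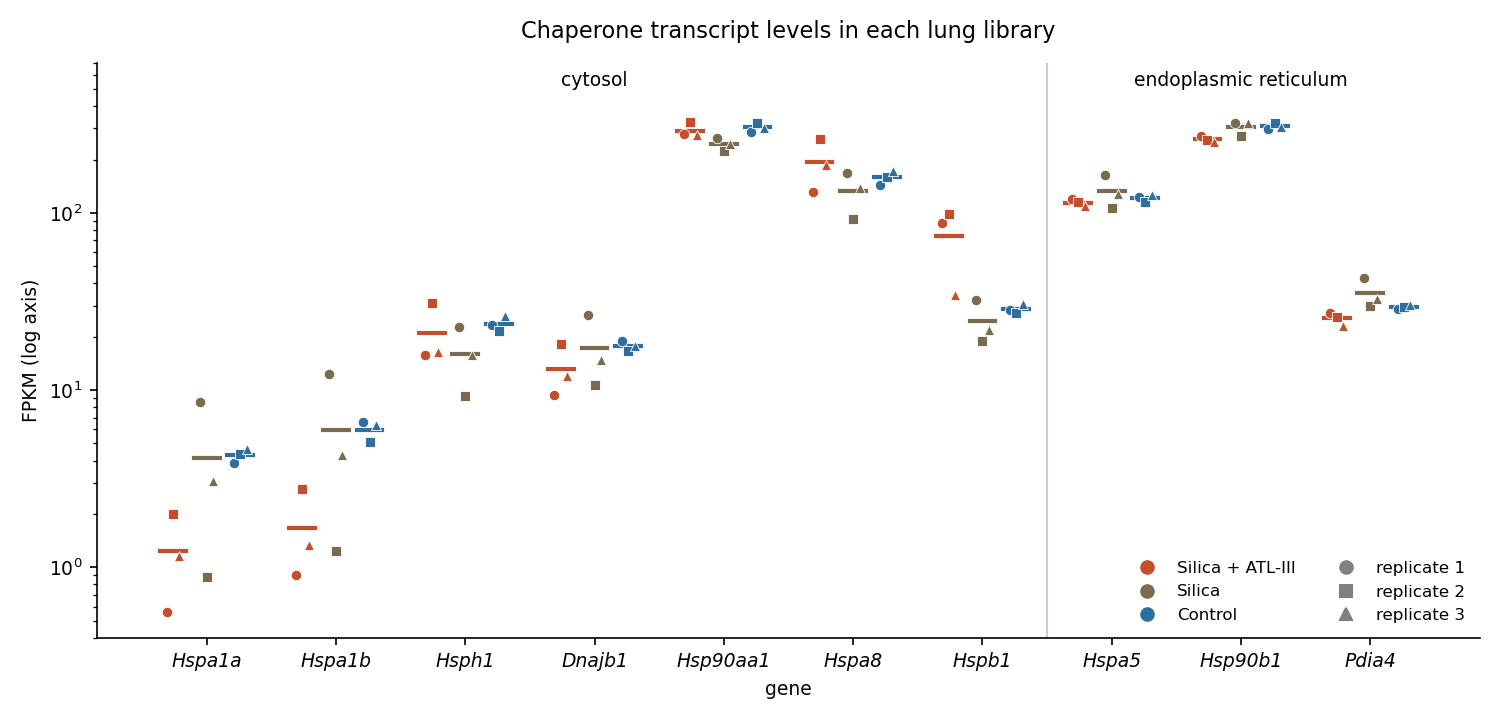
FPKM (log axis) of the 10 chaperone genes in each library, with Silica + ATL-III left, Silica in the middle and Control right for each gene, a marker shape per replicate and a bar at each group mean. The 3 Silica points of Hspa1a and Hspa1b lie far apart (0.88 to 8.52 and 1.23 to 12.36 FPKM), and the Silica + ATL-III points of Hspb1 (34.53 to 99.06 FPKM) lie above all others of that gene.

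Libraries held 16047175 to 17792481 counts. Lung markers were present in every group, with summed FPKM of 9 alveolar type 2 genes from 29350 to 49870 and no defining marker of any cell type listed at 0 in a whole group. Cell type markers moved with the groups. Summed FPKM of 12 neutrophil genes were 30220 to 45700 in Silica + ATL-III, 1065 to 4825 in Silica and 599.2 to 3906 in Control, and those of 8 B cell genes were 8.06 to 21.11 in Silica + ATL-III, 40.44 to 70.29 in Silica and 31.56 to 71.96 in Control. Summed FPKM of 14 macrophage genes were 398.9 to 688.7 in Silica + ATL-III, 984 to 4705 in Silica and 242.9 to 264.9 in Control. Gene by gene, 6 of these 14 were called lower and 8 were not called for Silica + ATL-III vs Silica, with a median log2 fold change of -0.40. Sums of 8 fibroblast genes were 730.2 to 1260 in Silica + ATL-III, 1098 to 1341 in Silica and 1673 to 1925 in Control. Sums of 8 smooth muscle and pericyte genes were 55.86 to 76.13 in Silica + ATL-III, 53.7 to 63.98 in Silica and 94.17 to 105.9 in Control, and those of 9 heart and skeletal muscle genes were 44.23 to 79.7, 60.83 to 80.1 and 126.6 to 144.5 in the same groups. In bulk tissue, fewer cells of a type and less RNA per cell cannot be told apart, and the part of cell makeup in the results below was not tested. Under TMM scaling, 52.6% of called genes were higher in Silica + ATL-III than in Silica, against 29.8% when FPKM were rescaled to TPM. Against Control, the shares of higher calls were 57.6% and 12.7% for Silica + ATL-III, and 53.8% and 17.4% for Silica. With library totals alone they were 46% for Silica + ATL-III vs Silica and, against Control, 34.6% for Silica + ATL-III and 33% for Silica. TPM moved the median log2 fold change of all genes to -0.117, -0.314 and -0.201 in these 3 comparisons, and library totals to -0.021, -0.13 and -0.112.

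Hspb1 was the member with the clearest difference. It had 87.89, 99.06 and 34.53 FPKM in Silica + ATL-III, 32.38, 18.98 and 21.91 FPKM in Silica and 28.41, 27.38 and 30.47 FPKM in Control. All Silica + ATL-III libraries stood above all others, replicate 3 by a small margin. In FPKM, 15.5% of tested genes had Silica + ATL-III wholly above Silica, and 1855 of 15459 had it wholly above Control. Hspb1 was 3.04-fold higher in Silica + ATL-III than in Silica (log2 fold change 1.60 ± 0.32 SE, edgeR quasi-likelihood test, Benjamini-Hochberg adjusted p = 0.00519) and 2.78-fold higher than in Control (1.48 ± 0.32, edgeR adjusted p = 0.00856). At the same threshold, an adjusted p under 0.05, 21.2% of all tested genes were called in either direction for Silica + ATL-III vs Silica (11.2% higher, and 1553 genes lower) and 15.9% for Silica + ATL-III vs Control (9.14% higher, 6.71% lower). Both Hspb1 calls held whichever single library was left out, with log2 fold changes of 1.34 to 1.94 against Silica and 1.21 to 1.83 against Control. Against Control the call was lost in limma on log2(FPKM + 0.5) and log2(FPKM + 0.1), with adjusted p = 0.0552 and 0.0647 where the 21 alternatives ran from 4.08e-22, in the fit without an expression filter, to 0.0647.

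Glucocorticoid-induced genes, among others, were also uneven over the Silica + ATL-III libraries. Fkbp5, an Hsp90 cochaperone of steroid receptors that glucocorticoids induce, had 29.63, 32.78 and 10.32 FPKM in Silica + ATL-III, 5.47, 1.88 and 3.88 FPKM in Silica and 4.55, 4.57 and 5.54 FPKM in Control. It was higher in Silica + ATL-III than in Silica by 2.70 ± 0.43 and than in Control by 2.43 ± 0.42 on the log2 scale (edgeR adjusted p = 0.0014 and 0.00238). Of 11 listed glucocorticoid-induced genes, 9 were called higher than in Silica and 6 higher than in Control. Their summed FPKM were 1093, 877 and 413.3 in Silica + ATL-III, 413.5, 230.9 and 400.6 in Silica and 408.1, 419.1 and 412.6 in Control, so the sum in Silica + ATL-III replicate 3 was at the Control level, although Fkbp5 there was above all Control values. All 11 genes were lowest within Silica + ATL-III in that replicate, as Hspb1 was, and so were 36.3% of all tested genes. So were 13 of 16 tested immediate-early genes and 24 of 35 genes of the UPR and of ER-associated degradation. Summed FPKM of 18 immediate-early genes were 666.6, 776.3 and 537.9 in Silica + ATL-III. The neutrophil sum of replicate 3, 45700, was the highest of the group, against 30770 and 30220. The part of these gene lists and of neutrophils in the Hspb1 result was not tested. Of 16 tested immediate-early genes, 9 were called higher in Silica + ATL-III than in Silica and 9 higher than in Control.

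**Figure D2:**
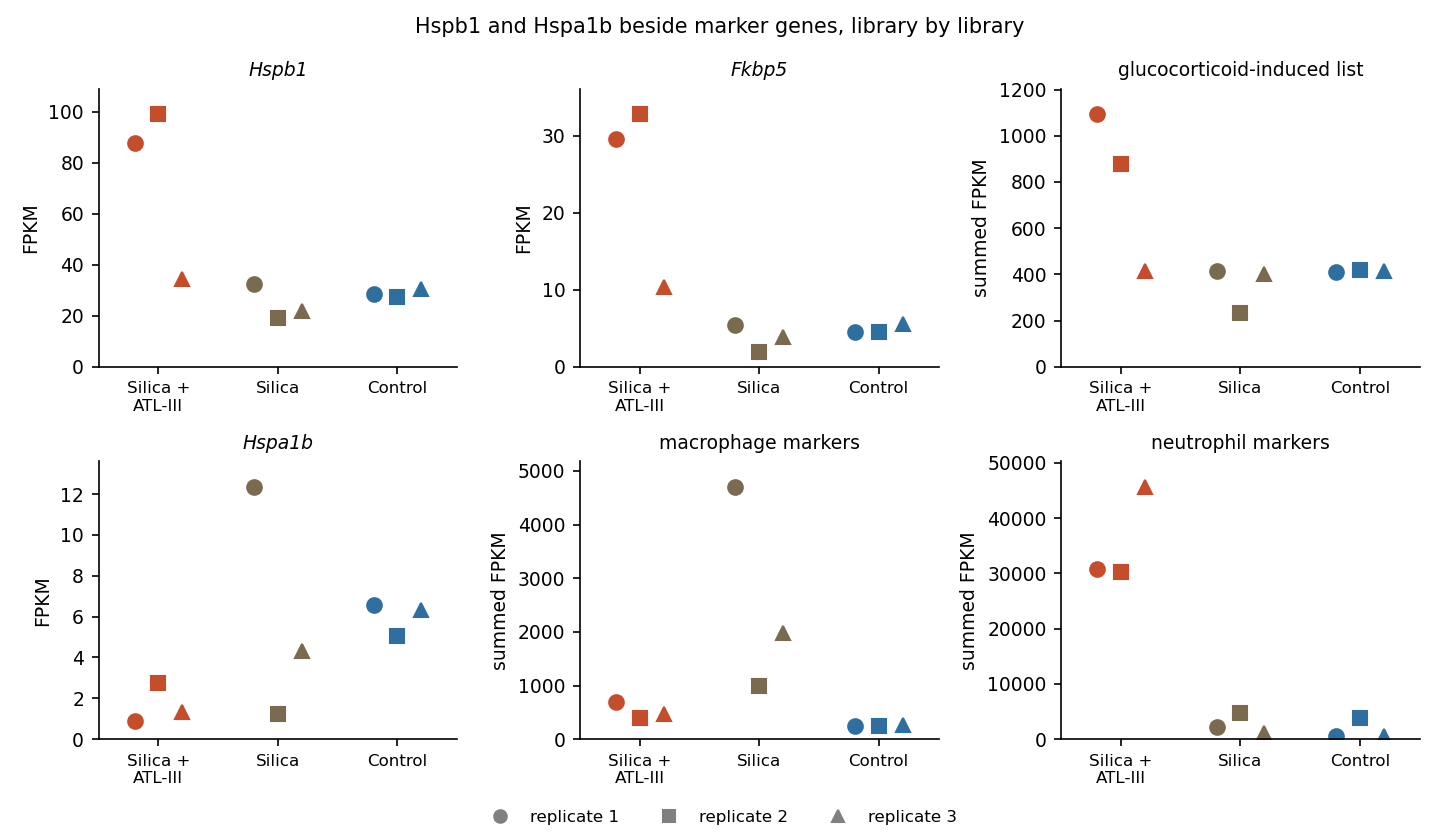
FPKM of Hspb1, Fkbp5 and Hspa1b and summed FPKM of the glucocorticoid-induced, macrophage and neutrophil lists in each library, with Silica + ATL-III left, Silica in the middle and Control right and a marker shape per replicate. Replicates 1 and 2 of Silica + ATL-III are high for Hspb1, Fkbp5 and the glucocorticoid-induced list. Hspa1b and the macrophage list share the order of the Silica libraries, which 24.5% of tested genes had in TMM-scaled CPM. They do not share the order of the Silica + ATL-III libraries.

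The inducible Hsp70 genes Hspa1a and Hspa1b showed the widest spread. Hspa1a had 0.56, 2.01 and 1.16 FPKM in Silica + ATL-III, 8.52, 0.88 and 3.07 FPKM in Silica and 3.88, 4.39 and 4.68 FPKM in Control. Hspa1b had 0.90, 2.75 and 1.34 FPKM in Silica + ATL-III, 12.36, 1.23 and 4.33 FPKM in Silica and 6.58, 5.07 and 6.32 FPKM in Control. For both genes all Silica + ATL-III libraries were below all Control libraries, whereas the Silica libraries ran from below to well above Control. In FPKM, 30.6% of tested genes had Silica + ATL-III wholly below Control. The fitted log2 fold changes against Control were -1.67 ± 0.64 for Hspa1a and -1.73 ± 0.64 for Hspa1b, short of the threshold (edgeR adjusted p = 0.102 and 0.0931, unadjusted p = 0.0233 and 0.0202). Both genes were called lower than Control in 5 of 21 alternatives, among them the fit of only the 6 libraries compared (edgeR adjusted p = 0.0133 and 0.0092) and the fits without Silica replicate 1 (0.0309 and 0.0247) or Silica replicate 2 (0.0228 and 0.0182), libraries that enter this contrast through the shared spread and the scaling. Over all alternatives the adjusted p ran from 3.61e-12 to 0.262 for Hspa1a and from 3.78e-15 to 0.242 for Hspa1b. Both low ends came from the edgeR fit without an expression filter, 1 of these 5 alternatives, and the next lowest values were 0.0133 and 0.0092.

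Against Silica the fitted log2 fold changes were -1.74 ± 0.64 for Hspa1a and -1.85 ± 0.64 for Hspa1b (edgeR adjusted p = 0.0723 and 0.0601), and the libraries overlapped. A single Silica library decided these values. Without Silica replicate 1 they were -0.63 and -0.71, and without Silica replicate 2 they were -2.23 and -2.34, which passed the threshold (edgeR adjusted p = 0.00637 and 0.0048, within ranges over the alternatives of 1.54e-13 to 0.46 and 1.08e-17 to 0.392). The low ends again came from the edgeR fit without an expression filter. Silica vs Control gave 0.07 ± 0.59 for Hspa1a and 0.12 ± 0.59 for Hspa1b, and -1.02 and -1.01 without Silica replicate 1. The SD of log2 CPM (TMM-scaled) within Silica was 1.66 for Hspa1a and 1.69 for Hspa1b, the 8th and 6th widest of the 15459 tested genes. The SDs within Silica + ATL-III were 0.89 and 0.79, and those within Control were 0.13 and 0.21.

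The pair is hard to count separately. Hspa1a and Hspa1b are neighbouring, intronless copies on chromosome 17, identical at 99.6% of aligned coding bases and 98.7% of 5′ UTR bases but at only 71.6% of aligned 3′ UTR bases in GENCODE M21. Hspa1a took 38.4% to 47.9% of their joint counts over the 9 libraries, with Wilson 95% intervals of 28.9% to 51.6% at the lowest depth (68 counts, Silica + ATL-III replicate 1) and 39.2% to 45.2% at the highest (1043 counts, Silica replicate 1). These intervals cover counting error only. No source used here says how reads that match both copies were counted, which leaves their split uncertain. Their joint counts were 68, 229 and 119 in Silica + ATL-III, 1043, 102 and 378 in Silica and 492, 437 and 512 in Control.

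The other cytosolic members passed no threshold. Hsph1 had 15.72, 30.86 and 16.32 FPKM in Silica + ATL-III, 22.68, 9.32 and 15.77 FPKM in Silica and 23.47, 21.65 and 26.15 FPKM in Control. Dnajb1 had 9.41, 18.25 and 12.06 FPKM in Silica + ATL-III, 26.44, 10.67 and 14.89 FPKM in Silica and 18.83, 16.57 and 17.86 FPKM in Control. In both genes the extremes among Silica and Silica + ATL-III libraries lay on either side of the narrow Control values. Hspa8 had 131.19, 261.22 and 187.67 FPKM in Silica + ATL-III, 167.99, 92.47 and 137.86 FPKM in Silica and 144.60, 159.35 and 172.67 FPKM in Control, with a log2 fold change of 0.55 ± 0.25 against Silica (edgeR adjusted p = 0.142). Hsp90aa1 had 278.07, 324.13 and 273.87 FPKM in Silica + ATL-III, 265.46, 223.82 and 244.06 FPKM in Silica and 285.75, 322.58 and 303.70 FPKM in Control. The Silica libraries of Hsp90aa1 were below all others in FPKM, but in TMM-scaled CPM Silica replicate 1 (1102) was above Control replicate 1 (1076). Hsp90aa1 had a log2 fold change of 0.27 ± 0.13 for Silica + ATL-III vs Silica (edgeR adjusted p = 0.152) and -0.21 ± 0.13 for Silica vs Control (adjusted p = 0.265). In FPKM, 28.9% of tested genes had Silica wholly below Control. The 95% intervals of the log2 fold change against Silica were -0.28 to 1.08 for Hsph1, -1.05 to 0.28 for Dnajb1 and -0.01 to 0.55 for Hsp90aa1. These intervals include 0, and changes within their limits remain compatible with the fit.

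Of the ER members, only Pdia4 was called, in 1 comparison. Pdia4 had 27.43, 26.04 and 23.09 FPKM in Silica + ATL-III, 43.12, 29.82 and 32.54 FPKM in Silica and 28.55, 29.61 and 30.10 FPKM in Control. Its Silica + ATL-III libraries lay below all others in FPKM, but in TMM-scaled CPM replicate 1 (67.8) lay among the Control libraries (65.6 to 68.6). Pdia4 was lower than in Silica by a log2 fold change of -0.45 ± 0.14 (edgeR adjusted p = 0.045), while it differed from Control by -0.09 ± 0.14 (adjusted p = 0.734). The call against Silica held in 7 of 21 alternatives and in 1 of the 9 fits that each left out a library, the one without Silica replicate 2, and its log2 fold change was -0.24 without Silica replicate 1. Over these alternatives the adjusted p ran from 0.00784 to 0.142. Hspa5 had 119.27, 115.26 and 109.00 FPKM in Silica + ATL-III, 164.61, 106.66 and 128.47 FPKM in Silica and 122.42, 115.01 and 126.93 FPKM in Control. The Silica libraries of Hspa5 ran from below to above all others, and no comparison was called (95% interval of -0.55 to 0.14 for Silica + ATL-III vs Silica). Hsp90b1 had 272.89, 258.83 and 252.57 FPKM in Silica + ATL-III, 319.98, 273.54 and 320.28 FPKM in Silica and 299.11, 320.64 and 304.50 FPKM in Control. Its Silica + ATL-III libraries were below all others in FPKM, as were those of 19.6% of tested genes against Silica and 30.6% against Control. In TMM-scaled CPM Silica + ATL-III replicate 1 (1134) was above Silica replicate 2 (1091). Its log2 fold changes of -0.20 ± 0.12 against Silica and -0.12 ± 0.12 against Control were not called (edgeR adjusted p = 0.254 and 0.556). Hsp90b1 shares 415 exonic bases with 1810014B01Rik on the opposite strand, which had 70 to 115 counts, and the sources used here do not say whether counting used strand.

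**Figure D3:**
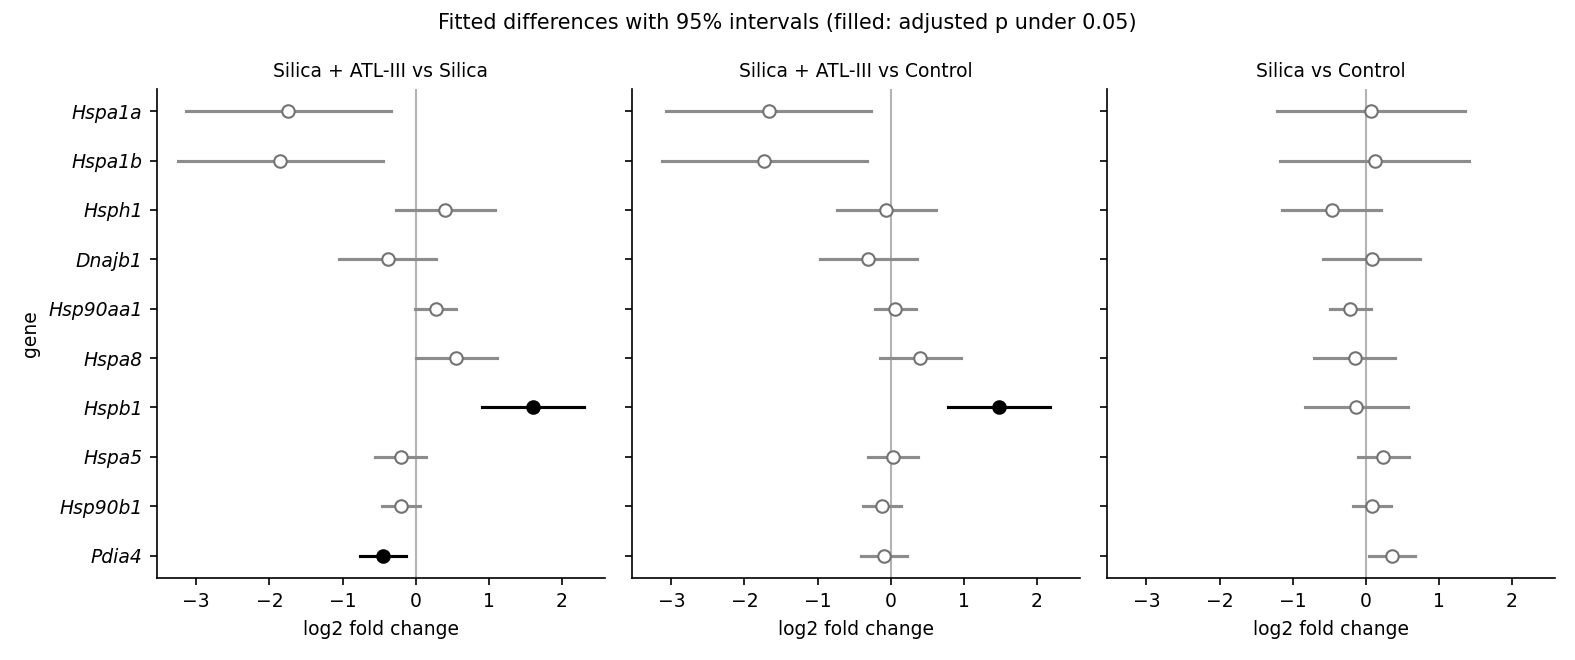
Log2 fold changes of the 10 chaperone genes with 95% intervals from the edgeR fit for Silica + ATL-III against Silica (left), Silica + ATL-III against Control (middle) and Silica against Control (right), with filled points for an adjusted p under 0.05. Hspb1 is filled in the first and second panels (1.60 and 1.48), Pdia4 in the first (-0.45), and the third has no filled point.

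Silica on its own gave 0 called members. EdgeR called 16.9% of all tested genes for Silica vs Control (9.11% higher, 7.81% lower), and 1 member, Pdia4, had an unadjusted p under 0.05 (0.36 ± 0.14, adjusted p = 0.0974). The members' log2 fold changes ran from -0.46 to 0.36 with a median of 0.08, against -0.01 over all tested genes. No member was called by DESeq2, and 1, Pdia4, was called without Silica replicate 2 (0.49, adjusted p = 0.0245, where the alternatives ran from 0.0245 to 0.415). The members' medians were -0.20 for Silica + ATL-III vs Silica, where all tested genes had 0.00, and -0.07 for Silica + ATL-III vs Control, where they had -0.01.

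Within the Silica group the members kept a single order. For all 10, TMM-scaled CPM was highest in Silica replicate 1 and lowest in Silica replicate 2, an order shared by 24.5% of tested genes. The macrophage sum followed it, at 4705 in replicate 1, 984 in replicate 2 and 1982 in replicate 3, and so did 8 plasma cell genes, at 289.4, 149.9 and 209.4, and 8 fibroblast genes, at 1341, 1098 and 1218. The heart and skeletal muscle sum also followed it, at 80.1, 60.83 and 63.2. The other cell type sums had other orders. Sums of neutrophil genes (2151, 4825 and 1065) and B cell genes (40.44, 70.29 and 40.75) were highest in replicate 2. So were those of T and NK cell genes (63.53, 79.87 and 63.38) and red blood cell genes (4993, 8537 and 5542). Endothelial genes were lowest in replicate 1 (207.8, 270.9 and 278.4). The sum of 8 airway secretory and ciliated cell genes set replicate 1 apart, at 38350 against 83500 in replicate 2 and 80790 in replicate 3. The glucocorticoid-induced sum also had its lowest value in replicate 2, at 230.9. Of 41 other cytosolic chaperone genes tested, 31 were highest in Silica replicate 1 and 26 lowest in replicate 2, and of 41 other ER chaperone genes 30 and 28 were. Of all tested genes, 38% were highest in Silica replicate 1 and 36.2% lowest in Silica replicate 2. The part of these cell types in the order was not tested. Within Silica + ATL-III, replicate 2 was highest for all 7 cytosolic members, as it was for 32.1% of tested genes, and 5 of them, Hspa1a, Hspa1b, Hsph1, Dnajb1 and Hspa8, were lowest in replicate 1. The 3 ER members were highest in replicate 1 and lowest in replicate 3, an order held by 17.9% of tested genes. Of the 41 other cytosolic chaperone genes, 6, 23 and 12 were highest in replicates 1, 2 and 3, and of the 41 other ER chaperone genes 16, 15 and 10 were. The difference between the compartments was not tested.

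**Figure D4:**
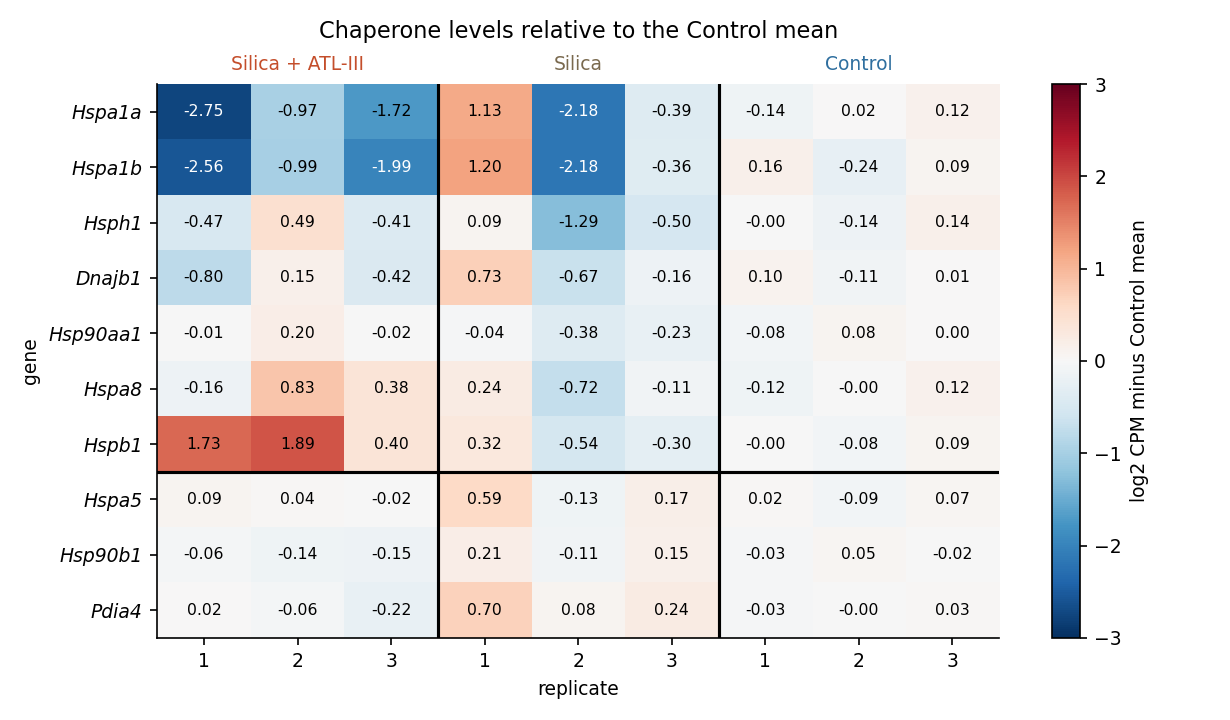
Log2 CPM of each chaperone gene minus its mean over the Control libraries, for Silica + ATL-III (left), Silica (middle) and Control (right) replicates, red above and blue below the Control mean. Hspa1a ranges from -2.75 in Silica + ATL-III replicate 1 to 1.13 in Silica replicate 1, while the ER genes stay between -0.22 and 0.70.

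The rest of the chaperone network was read from 7 gene lists without the 10 members. Calls of these lists depended on the scaling. With FPKM rescaled to TPM, the cytosolic list had 0 higher and 5 lower calls for Silica + ATL-III vs Silica, in place of 6 and 2, and the ER list had 1 and 9, in place of 1 and 4. Against Control, TPM gave Silica + ATL-III 0 higher and 14 lower cytosolic, 0 and 13 ER and 1 and 8 UPR calls, and it gave Silica 0 and 11 cytosolic and 3 and 4 ER calls. The counts that follow are from the TMM-scaled fit and are relative to the shift in all genes given above. List medians of the log2 fold change ran from -0.18 (chaperonin and prefoldin) to 0.05 (mitochondrial) for Silica + ATL-III vs Silica, with -0.16 for the ER list and 0.00 over all tested genes. Against Control they ran from -0.11 (HSF) to 0.13 (UPR) for Silica + ATL-III, with -0.01 over all genes. For Silica they ran from -0.02 (HSF) to 0.23 (chaperonin and prefoldin), with 0.17 for the ER list and -0.01 over all genes. Of 8 HSF factors and regulators, 7 were tested. Against Silica, Fkbp5 was called higher and Hsf2, a factor that pairs with HSF1, lower in Silica + ATL-III (-0.35 ± 0.12, edgeR adjusted p = 0.0499), a call that was lost in every fit without a library except that without Silica + ATL-III replicate 3. Against Control Fkbp5 was called higher and 0 genes lower, with 1 lower without Silica + ATL-III replicate 3. Hsf1, the main heat shock factor, had 3.81, 4.16 and 3.75 FPKM in Silica + ATL-III, 2.83, 3.56 and 3.79 FPKM in Silica and 4.69, 5.17 and 4.75 FPKM in Control. Hsf1 was lower in Silica than in Control (-0.42 ± 0.11, edgeR adjusted p = 0.0294), as was Hsf4 (-0.49 ± 0.15, adjusted p = 0.046). These 2 calls numbered 0 or 1 in each fit that left out a library, with 0 without Silica replicate 1 or any Control replicate.

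Of 41 tested cytosolic Hsp70, Hsp110 and Hsp90 chaperones and cochaperones, 6 were higher and 2 lower in Silica + ATL-III than in Silica. Hspa4l, an Hsp110 relative, was higher by 0.44 ± 0.12, and Bag3, a cochaperone of Hsp70 in autophagy and a partner of small heat shock proteins, was lower by a log2 fold change of -0.75 ± 0.19 (edgeR adjusted p = 0.0188 and 0.0182). Bag3 had 7.60, 8.65 and 8.51 FPKM in Silica + ATL-III, 18.15, 9.87 and 13.80 FPKM in Silica and 13.86, 13.09 and 13.18 FPKM in Control. Its Silica + ATL-III libraries were below all others in FPKM, as were those of 19.6% of tested genes against Silica and 30.6% against Control. Bag3 was not called against Control. The 6 higher calls became 0 without Silica + ATL-III replicate 2 and 2 without Silica replicate 3. The 2 lower calls became 0 without Silica + ATL-III replicate 2 or Silica replicate 1, 1 without Silica + ATL-III replicate 1 or Silica replicate 3, and 7 without Silica replicate 2. Against Control 2 were higher, Hsp90ab1 and Cdc37, which brings kinases to Hsp90, and 1 was lower, Chordc1, which binds Hsp90. Hsp90ab1, the constitutive Hsp90 beta, had 198.71, 311.46 and 165.12 FPKM in Silica + ATL-III, 218.25, 148.72 and 145.22 FPKM in Silica and 148.62, 149.11 and 138.18 FPKM in Control. The higher calls against Control became 0 without Silica + ATL-III replicate 2, Control replicate 2 or Control replicate 3, and 1 without Silica + ATL-III replicate 1 or 3, Silica replicate 3 or Control replicate 1. The lower call became 0 without Silica + ATL-III replicate 1 or 3, Silica replicate 3 or any Control replicate, 2 without Silica replicate 1 and 4 without Silica replicate 2. For Silica vs Control 1 was higher, Dnajc2, and 3 lower, Dnajb5, Hspa12b and Hspa4l, with 0 higher without Silica replicate 1 or 3 or any Control replicate, 3 higher without Silica replicate 2, 1 lower without Silica replicate 1 or Control replicate 3 and 5 without Silica replicate 2. The abundant cochaperone Bag1 was not called in any comparison.

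Of the genes listed as small heat shock proteins, 6 were tested, Hspb2, Hspb6, Hspb7, Hspb8, Hspb11 and Cryab. Among them Hspb8, the partner of Bag3, had 48.77, 54.61 and 36.61 FPKM in Silica + ATL-III, 33.65, 25.38 and 24.56 FPKM in Silica and 34.88, 32.40 and 37.72 FPKM in Control. It was higher than in Silica by 0.76 ± 0.17 and than in Control by 0.53 ± 0.17 on the log2 scale (edgeR adjusted p = 0.00819 and 0.0476). The call against Control was lost without Silica + ATL-III replicate 1 or 2, Silica replicate 3 or any Control replicate, and 1 gene was lower than Control without Silica + ATL-III replicate 3. Hspb7 was also higher than in Silica (0.80 ± 0.25, adjusted p = 0.0375) and Hspb2 lower (-1.08 ± 0.27, adjusted p = 0.0149). The higher calls against Silica numbered 1 or 2, with 1 without Silica + ATL-III replicate 1 or 2, any Silica replicate, or Control replicate 1 or 3. The lower call against Silica was lost without Silica + ATL-III replicate 2 or Silica replicate 1, and was joined by another without Silica replicate 2. Cryab, alpha B crystallin and the most abundant of the uncalled genes, differed by -0.27 ± 0.12 from Silica (adjusted p = 0.131). For Silica vs Control 0 of the 6 were called by edgeR, and 1 was called higher without Silica replicate 2 and 1 lower without Silica + ATL-III replicate 3.

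Of 41 tested ER chaperones and oxidoreductases, 1 was higher (2.44%) and 4 lower (9.76%) in Silica + ATL-III than in Silica. Fkbp14, a prolyl isomerase of collagen folding, had 18.41, 19.20 and 9.19 FPKM in Silica + ATL-III, 5.06, 5.68 and 6.12 FPKM in Silica and 9.58, 9.19 and 8.81 FPKM in Control (log2 fold change 1.49 ± 0.22, edgeR adjusted p = 0.000899). Its value in Silica + ATL-III replicate 3 stood within the Control values. Pdia3, the glycoprotein disulfide isomerase ERp57, had 163.23, 143.92 and 136.75 FPKM in Silica + ATL-III, 265.56, 184.94 and 218.87 FPKM in Silica and 167.11, 176.59 and 163.22 FPKM in Control (-0.58 ± 0.15, adjusted p = 0.0177). Prdx4, Ero1b and Hspa13 were the other lower genes. The 4 lower calls became 0 without Silica + ATL-III replicate 2 or Silica replicate 1, 2 without Silica + ATL-III replicate 1 and 9 without Silica replicate 2, and the 1 higher call became 2 without Silica + ATL-III replicate 3. Against Control 3 were higher, Fkbp14, Cnpy3 and Sdf2l1, and 1 was lower, Serpinh1, the collagen chaperone Hsp47. The fibroblast sums given above were also lower than in Control in every Silica + ATL-III library, and their part in the Serpinh1 call was not tested. When single libraries were left out these numbered 0 to 4 and 0 or 1, with 0 higher without Silica + ATL-III replicate 1 or 2 or Control replicate 3, 1 higher without Silica + ATL-III replicate 3 or Control replicate 1 or 2, and 0 lower without Silica + ATL-III replicate 3 or any Control replicate. For Silica vs Control 7 of 41 were higher (17.1%) and 0 lower, against 9.11% and 7.81% of all tested genes. The 7 were led by Sdf2l1, a partner of an ER J-domain protein (1.01 ± 0.23, edgeR adjusted p = 0.0154), Erp29 (0.61 ± 0.15), Fkbp11 (1.07 ± 0.29) and Sil1, the nucleotide exchange factor of BiP (0.59 ± 0.16). The count of 7 became 0 without Silica replicate 1 or Control replicate 2, 1 without Control replicate 1 or 3, 2 without Silica replicate 3 and 15 without Silica replicate 2, and the lower count became 1 without Silica replicate 2 and 2 without Silica + ATL-III replicate 3. The plasma cell and macrophage sums given above were also highest in Silica replicate 1. Gene by gene, for Silica vs Control 0 of 6 tested plasma cell genes were called higher and 1 lower (median log2 fold change 0.02). Of 14 macrophage genes 11 were called higher and 0 lower (median 1.05). The part of these cell types in these ER calls was not tested.

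Of 35 tested genes of the UPR and of ER-associated degradation, 3 were higher (8.57%) and 0 lower in Silica + ATL-III than in Silica. Against Control, 5 were higher (14.3%) and 1 lower (2.86%), where 9.14% and 6.71% of all tested genes were. Ppp1r15a (GADD34), which lets translation resume after stress, had 11.12, 13.44 and 10.27 FPKM in Silica + ATL-III, 7.63, 6.72 and 7.75 FPKM in Silica and 7.71, 6.30 and 7.17 FPKM in Control. It was higher than in Silica by 0.67 ± 0.14 and than in Control by 0.84 ± 0.14 on the log2 scale (edgeR adjusted p = 0.00521 and 0.00157). Xbp1, a UPR factor that also marks plasma cells, was higher by 0.42 ± 0.10 and 0.41 ± 0.10 (adjusted p = 0.0136 and 0.0162), and Ern1, the sensor that splices its mRNA, was higher than in Silica by 0.42 ± 0.12 (adjusted p = 0.023). Syvn1, a ubiquitin ligase of ER-associated degradation, was lower than in Control (-0.57 ± 0.12, adjusted p = 0.00705). The counts against Silica ran from 1 higher without Silica + ATL-III replicate 2 to 5 without Silica + ATL-III replicate 3, with 2 lower without Silica replicate 2 and 1 lower without Silica + ATL-III replicate 3. Those against Control ran from 1 higher without Control replicate 1 or 3 to 6, with 2 without Silica + ATL-III replicate 2 and 3 without Control replicate 2. For Silica vs Control 1 was higher, Tmbim6, and 1 lower, Syvn1, and each count fell to 0 without Silica replicate 1 or 3 or any Control replicate, against 6 higher and 2 lower without Silica replicate 2. Without Silica + ATL-III replicate 1, 2 or 3 these counts were 1 and 0, 2 and 1, and 3 and 2.

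The remaining lists held few calls. Of 14 tested chaperonin and prefoldin genes, 2 were lower in Silica + ATL-III than in Silica, Pfdn1 and Pfdn4, with 0 without Silica + ATL-III replicate 1 or 2 or Silica replicate 1 or 3 and 5 without Silica replicate 2. Against Control 0 of 14 were called by edgeR. Pfdn1 was higher in Silica than in Control, with 0 calls without Silica replicate 1 or 3 or any Control replicate, 3 without Silica + ATL-III replicate 2 or 3, and 7 without Silica replicate 2. Of 13 mitochondrial chaperones and proteases, Hspa9, the mitochondrial Hsp70, was lower in Silica + ATL-III than in Silica (-0.52 ± 0.15, edgeR adjusted p = 0.0276), a call lost without Silica + ATL-III replicate 2 or 3 or Silica replicate 1 or 3. Against Control 2 were higher, Hspe1 and Grpel1, the nucleotide exchange factor of the mitochondrial Hsp70, falling to 0 without Silica + ATL-III replicate 1 or 2 or Control replicate 1 or 3 and to 1 without Silica + ATL-III replicate 3, Silica replicate 2 or Control replicate 2. Hspe1, the mitochondrial Hsp10, was higher in Silica than in Control (0.48 ± 0.13, adjusted p = 0.0283), a call lost without Silica replicate 1 or 3 or any Control replicate, and 2 were higher without Silica replicate 2.

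**Figure D5:**
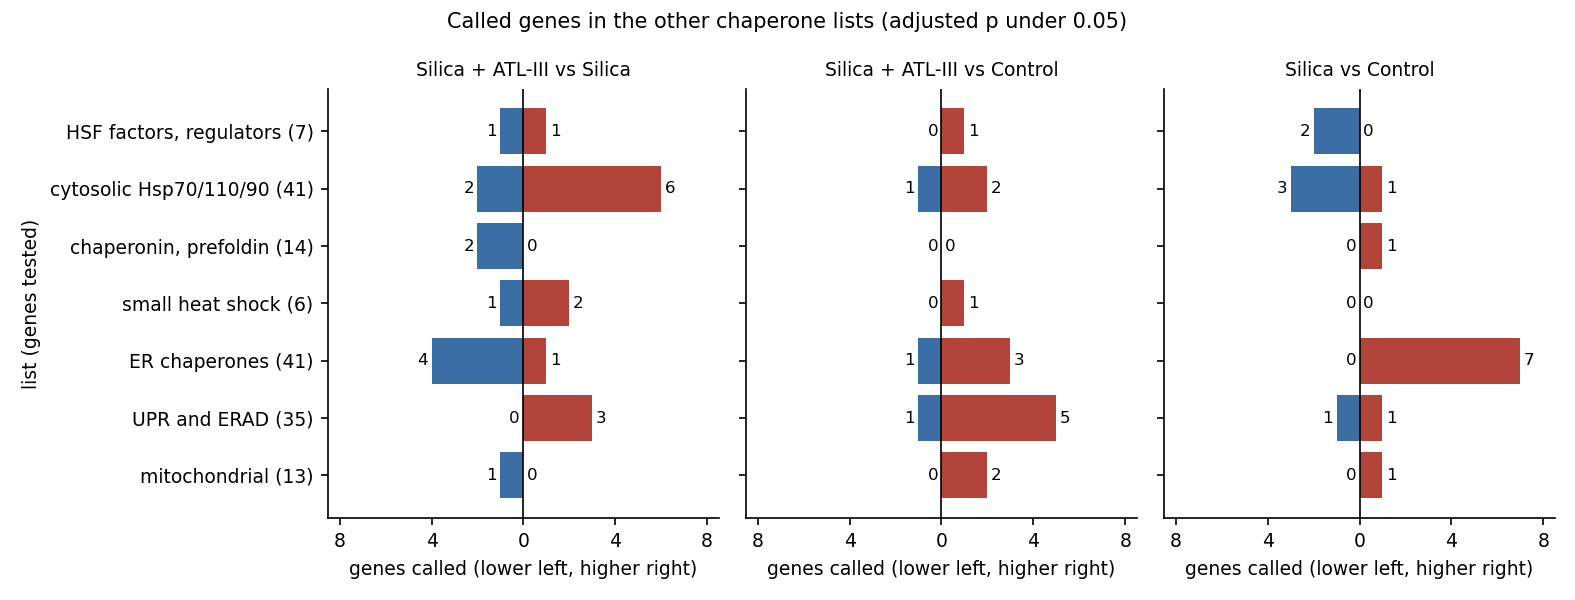
Number of genes called higher (right, red) and lower (left, blue) at an adjusted p under 0.05 in 7 chaperone lists without the 10 members, for Silica + ATL-III against Silica (left), Silica + ATL-III against Control (middle) and Silica against Control (right), with the number of tested genes beside each list name. The longest bars are 7 ER chaperones higher in Silica than in Control and 6 cytosolic chaperones higher in Silica + ATL-III than in Silica. These are 17.1% and 14.6% of their lists, against 9.11% and 11.2% of all tested genes.

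The genes nearest to each member were found by the root mean square difference in log2 CPM over the 9 libraries, each gene centred on its own mean. Hspa1a and Hspa1b were each other's nearest gene (0.17, against a spread of 1.17 for Hspa1a itself), and their sequences are largely shared. The nearest to Hspb1 were Tinagl1, Cdkn1a and Plat at 0.25 to 0.26, with a spread of 0.81 for Hspb1. Cdkn1a, but not Tinagl1 or Plat, is on the glucocorticoid-induced list. The nearest to Dnajb1 were the processed pseudogene Gm7816 (0.21) and Eno2 (0.22), and then Dnaja1, another J-domain cochaperone (0.24). The 3 nearest were Gm15542, Ifitm5 and Gm9028 for Hsph1, and Rhoa, Mrps2 and Tubb4b for Hspa5. They were Hmgb1, Thumpd1 and Ppp2r2a for Hsp90b1, and Ndfip1, Ythdf2 and Kdelr2 for Pdia4. Stip1, which joins Hsp70 to Hsp90, had rank 3 for Hspa8 (0.16), behind 1700007K13Rik (0.14). The nearest to Hspa8 was the processed pseudogene Gm15459 (0.09), and 91.9% of the 31-base words of its transcript also occur in Hspa8 transcripts. Gm12346, among the 3 nearest to Hsp90aa1 (0.07), shared 83.3% of its words with Hsp90aa1. For these copies the authors' counting could split reads, and likeness is a description over these 9 libraries.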

How the data were processed

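Poly(A) RNA of lung was sequenced in 9 libraries, 3 per group. The deposited table gives raw counts per gene and library, which the authors made with tools that include Cutadapt 1.9.1, HISAT2 2.0.1 and HTSeq 0.6.1 on mm10, per the submitters' processing notes. It also gives the FPKM that the authors computed and, per the file headers, the exonic length of each gene. Recomputed FPKM matched every deposited value (100%) within 0.006, so FPKM carry no scaling beyond library totals. Counting strand, multi-mapping rules and annotation release are not given in the sources used here.

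EdgeR 4.0.16 (R 4.3.3, TMM, quasi-likelihood test) was fitted to the counts of all 9 libraries as 3 group means, over the 15459 genes that reached an FPKM of 1 in 3 or more libraries. The threshold was a Benjamini-Hochberg adjusted p of 0.05. SE is the log2 fold change over the root of F. DESeq2 1.42.0, limma 3.58.1 on log2(FPKM + pseudocount), other scalings and filters, left-out libraries and a replicate block were alternatives. Counts of libraries within a group differed beyond counting noise (lowest chi-square per degree of freedom 6.44). Of listed genes, up to 4 called genes with the smallest p per direction, list and comparison and the most abundant uncalled gene could be named. The members and lists were chosen with earlier results of these data known. The code was tested on simulated counts. Gene positions in the table did not match mm10, so only chromosomes were used from it.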

Additional observations from a re-analysis of the deposited data

How the results depend on the processing

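Over 21 alternatives, the 10 members' fold changes kept direction and side of the threshold in 546 values and not in 84. Hspb1 was called higher than Silica in all 21 and than Control in 19, with log2 fold changes of 1.191 to 1.83 against Control. Among counts of called members for Silica vs Control (0 higher, 0 lower), TPM rescaling gave 1 lower (Hsp90aa1), the unfiltered fit 1 higher and 1 lower, and left-out libraries 0 to 1 higher. For Silica + ATL-III vs Silica (1 higher, 1 lower), the lower count was 2 with TPM, 0 in limma with each pseudocount (0.5, 0.1 and 1), 0 with filterByExpr, 0 in the fit of only the 6 libraries, 4 with no filter (3 higher) and 0 to 3 with left-out libraries. For Silica + ATL-III vs Control (1 higher, 0 lower), TPM gave 3 lower (Hspa1a, Hspa1b and Hsp90b1), limma 0 higher with pseudocounts of 0.5 and 0.1, the unfiltered fit 2 higher and 2 lower, the 6-library fit 2 lower and left-out libraries 0 to 2 lower. Of the counts for the listed genes, 584 stayed within 1.5 times the main count and 298 did not. The causes were not tested.

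Uncalled fold changes near 0 turned sign. For Silica vs Control, Hspa1a, Hspa1b, Dnajb1 and Hsp90b1 were -0.052, -0.003, -0.034 and -0.016 with library totals, -0.118, -0.065, -0.108 and -0.103 with TPM, and -0.44, -0.441, -0.129 and -0.02 in limma with a pseudocount of 0.5. With 0.1 they were -0.558, -0.532, -0.135 and -0.02, and with 1 they were -0.345, -0.362, -0.123 and -0.02. Left-out libraries gave -1.024 to 0.558 for Hspa1a, -1.005 to 0.611 for Hspa1b, -0.382 to 0.347 for Dnajb1, -0.371 to 0.069 for Hspa8 and -0.401 to 0.043 for Hspb1. For Silica + ATL-III vs Silica they gave -0.681 to 0.093 for Dnajb1 and -0.361 to 0.007 for Hspa5. For Silica + ATL-III vs Control, Hsp90aa1 and Hspa5 were -0.058 and -0.085 with library totals, -0.241 and -0.268 with TPM, and -0.06 and -0.084 (0.5 and 1) or -0.06 and -0.085 (0.1) in limma. Left-out libraries there gave -0.445 to 0.125 for Hsph1, -0.015 to 0.116 for Hsp90aa1 and -0.009 to 0.079 for Hspa5.

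Deviations of libraries with the same replicate number had correlations of -0.133 to 0.12 over 9 pairs. For Silica and Control these were 0.09, 0.12 and 0.09, against -0.136 to 0.053 for different numbers. For Silica + ATL-III with either group they were -0.133 to -0.013. With 3 libraries per group these values cannot decide whether the numbers pair samples, and the labels give no pairing. A replicate block gave 0 lower members for Silica + ATL-III vs Silica, turned Hspa1a and Hspa1b to -0.102 and -0.095 for Silica vs Control, and left the other 5 member counts as they were. With 27 to 603 counts per library, Hspa1a and Hspa1b are the least precisely measured members.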
